A study of Mus musculus with 10 samples.

Results

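Serum-starved mouse fibroblasts that carried wild-type Lin37 were described here by the level of each gene, as 5 of the 10 RNA-seq libraries of the series. The 5 were chosen by their label, Lin37-rescue, and no measured value entered the choice. The study compared NIH3T3 fibroblasts without Lin37 with the same cells after Lin37 was put back, and the libraries of the cells without Lin37 were not used here beyond setting the scale. The exon 4 clone gave 2 of the libraries and the exon 6 clone gave 3. Each clone was grown from a single cell and carried InDels in the named exon of the Lin37 gene. Both had been stably transfected with an episome for doxycycline-inducible expression of wild-type Lin37, so every library came from cells with a mutated endogenous Lin37 gene and an added intact copy. All cells were held for 60 h in DMEM with 0% FCS, which arrests them in G0, and total RNA was depleted of ribosomal RNA before sequencing. The labels give 2 biological replicates for each clone, and libraries 2 and 3 of the exon 6 clone are technical replicates of 1 another, which were averaged, so that 4 replicates enter the results.

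Quiescence is a reversible arrest outside the cell cycle that cultured fibroblasts enter when growth factors in serum are withdrawn. Lin37 is a subunit of the MuvB core, which together with the pocket proteins p130 or p107, E2F and DP forms the DREAM complex, a repressor of cell cycle genes in resting cells. Fibroblasts secrete and remodel the extracellular matrix, a network of fibrillar collagens, adhesive glycoproteins and proteoglycans, and they both release and sense growth factors.

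Lin37 itself was found at 2.54 and 2.12 RPKM in the exon 4 replicates, at 4.92 RPKM in exon 6 replicate 1, and at 5.11 and 4.41 RPKM in the technical libraries 2 and 3 that form exon 6 replicate 2. The transcript was thus read in all 5 libraries and, after the rescaling given below, was higher in those of the exon 6 clone. In RPKM as deposited the libraries did not keep this order. Lin37 was not among the genes called different between the clones (below). The episomal and the endogenous transcript were not separated. RPKM counts reads per length of a gene and per size of the library. On that scale levels are set beside each other between genes, but it does not correct for sequence shared with other genes. Rankings between genes are therefore approximate. All levels below are RPKM after rescaling by median-of-ratios factors from all 10 libraries. Where a gene has 4 values, they stand in the order exon 4 replicates 1 and 2, then exon 6 replicates 1 and 2.

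The libraries differed from each other in ways that bear on the levels. A set of 13 gene models that share 25-base stretches with Gm10800, the most abundant entry, took up most of the nuclear protein-coding signal. Their summed level was 225640 and 475502 RPKM in the exon 4 libraries, 245315 RPKM in exon 6 library 1, and 850459 and 111025 RPKM in the technical libraries 2 and 3. Of the 13, 12 are annotated as protein-coding and 1 as a lincRNA, and the 12 made up 78.4% to 96.5% of the nuclear protein-coding signal of a library. They have no assigned function, their sequences overlap, and they are called repeat-like models here. The study removed entries of a satellite repeat before its own test, and whether these models are among them was not tested. The technical libraries also differed for Lars2 (588 and 77.8 RPKM), for Saa3 (47.9 and 346 RPKM) and for Mt1 (52.4 and 145.9 RPKM). Over the 6024 other nuclear protein-coding genes that averaged 1 RPKM or more, the technical pair had a median absolute log2 difference of 0.21, against 0.21 between the exon 4 replicates, 0.15 between the exon 6 replicates and 0.25 between the clone means. More than a 2-fold difference was seen for 101 of these genes in the technical pair, 72 between the exon 4 replicates, 14 between the exon 6 replicates and 219 between the clones. Exon 6 replicate 2 is an average of 2 libraries and the clone values are means, whereas the technical and exon 4 pairs are single libraries. The spreads of these pairs are therefore not directly comparable.

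Exon 4 replicate 2 stood apart at the low end of the range. It had 7687 protein-coding genes below 0.1 RPKM, where the other libraries had 9845 to 10791. Of the olfactory receptor genes, which serve in sensory neurons of the nose, it listed 24.1% at 0, against 55.3% to 96.4% in the other libraries, and its median over them was 0.0620 RPKM against 0 in every other library. The count of silent genes in a list or family is therefore also given without this replicate where that changes it. The part of sequencing depth in this difference was not tested, since RPKM values do not carry the depth.

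Of 21501 protein-coding genes, 6049 (28.1%) averaged 1 RPKM or more over the 4 replicates and are called expressed. A further 6928 (32.2%) stayed below 0.1 RPKM in each of the 4 replicates and are called silent, and without exon 4 replicate 2 the silent genes numbered 9394. Between the classes lay 8524 genes. Only 675 genes were listed at 0 in every library, and since genes used by every cell can also be listed at or near 0 in these values, a 0 is reported as listed and not as absence. Without the mitochondrial and the repeat-like models there were 21476 nuclear protein-coding genes, with a median of 0.150 RPKM. Of these, 16 reached 100 RPKM, 377 lay between 10 and 100, and 5631 lay between 1 and 10, and the median of the 6024 expressed among them was 2.29 RPKM.

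**Figure D1:**
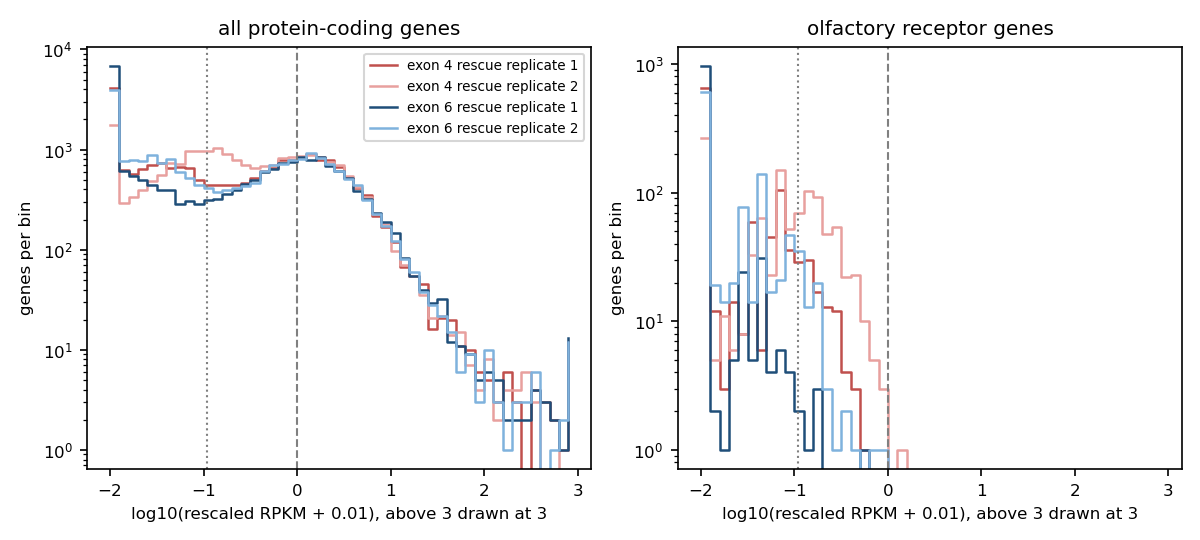
Number of protein-coding genes (left) and of olfactory receptor genes (right) per bin of level in each of the 4 rescue replicates, with log10(rescaled RPKM + 0.01) on the x axis and a log y axis; the dotted line marks 0.1 RPKM and the dashed line 1 RPKM. Genes at 0 fall in the leftmost bin and the highest genes in the rightmost. The curves lie together above 1 RPKM and part below it, where exon 4 replicate 2 has fewer genes at 0 and more around 0.1 RPKM.

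The label of the cells was checked against 6 fibroblast markers. Col1a1 and Col1a2, which encode the chains of type I collagen, were found at 122, 104, 324 and 215 RPKM and at 83.4, 56.9, 154 and 121 RPKM. Col3a1, the chain of type III collagen, was lower, at 20.2, 20.7, 25.9 and 17.7 RPKM. Fn1, which encodes fibronectin, had 163, 276, 197 and 135 RPKM. The matricellular protein gene Sparc was at 75.8, 56.0, 135 and 104 RPKM, and Vim, the intermediate filament gene of mesenchymal cells, at 48.5, 31.1, 50.9 and 41.8 RPKM. All 6 markers were at 17.7 RPKM or more in every replicate, and 4 of them (Fn1, Col1a1, Col1a2 and Sparc) were among the 30 most abundant genes. None of the 6 was called different between the clones (below). In bulk RNA, fewer cells that express a gene and less of its RNA per cell cannot be told apart.

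The 30 most abundant nuclear protein-coding genes held 92.7% of the summed level, 12 of them repeat-like models. Once the repeat-like models were left out, a choice made after the data were seen, the 30 most abundant genes held 13.0% of the sum, with 12.7% to 13.2% in single replicates, and 934 genes were needed to reach 50%. Spp1, which encodes the secreted glycoprotein osteopontin, led with 389.7, 362, 308 and 283 RPKM. It was followed by Lgals1, the gene of the carbohydrate-binding protein galectin-1, with 249.7, 230.2, 470 and 315 RPKM. Other matrix genes among the 30 were Lox, Bgn and Mmp2, which are described with their groups. Lox, the lysyl oxidase that cross-links collagen, varied least among these, with 116, 123, 128 and 123 RPKM. Behind its last value, the technical libraries 2 and 3 gave 109 and 136 RPKM.

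Among the other genes of the 30, Actb, cytoplasmic actin, had a mean of 218 ± 91.4 RPKM (SD, n = 4). In the technical libraries 2 and 3 Actb was at 156 and 330 RPKM. The translation elongation factors Eef1a1 and Eef2 had means of 126 ± 17.3 and 109 ± 12.7 RPKM, and the ribosomal protein genes Rpl8 and Rplp1 103 ± 5.80 and 87.0 ± 10.4 RPKM. Ubb, which encodes ubiquitin, had 72.8 ± 1.58 RPKM and varied least of the 30 relative to its mean. The technical libraries 2 and 3 gave 64.1 and 77.0 RPKM for Ubb, and only their average entered this SD. The chaperone genes Calr and Hsp90ab1 had 87.3 ± 31.8 and 68.1 ± 8.87 RPKM. S100a4 and S100a6, which encode small calcium-binding proteins, had 68.4 ± 6.58 and 59.8 ± 23.3 RPKM, Psap, the precursor of lysosomal saposins, 61.7 ± 17.5 RPKM, and B2m, the light chain of MHC class I, 88.8 ± 22.3 RPKM.

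Of the remaining genes of the 30, Saa3, a serum amyloid A made outside the liver, was at 216, 287, 50.1 and 197 RPKM, and its neighbours Saa1, Saa2 and Saa4 had means of 0.144, 0.0712 and 0.328 RPKM. C3, the central complement component, was at 142, 169, 35.6 and 50.1 RPKM, and Fth1, the ferritin heavy chain, at 181, 236, 70.8 and 82.2 RPKM. The metallothionein gene Mt1 had 145.8, 123, 104 and 99.2 RPKM. None of these genes was called different between the clones. Cxcl5, a neutrophil-attracting chemokine, was at 80.8, 118, 21.9 and 50.6 RPKM.

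Some of these levels rest on sequence that other genes share. Of the 25-base stretches of a gene, 96.0% in Gm11808, 91.9% in Gm2000, 80% in Rplp1, 54.0% in Eef1a1, 50.7% in Ubb, 49.7% in S100a4 and 30.8% in Actb were also found in other genes, so their levels are uncertain. Gm2000 and Gm11808, at 79.3 and 78.2 RPKM, are gene models without a described function. Lars2, the mitochondrial leucyl-tRNA synthetase, reached 228 ± 127 RPKM and shared 1.90% of its stretches with other genes, but followed the repeat-like models in the technical pair, where both were higher in library 2. What lies behind that joint difference was not tested. The counting of reads is not stated to use strand, so reads of a gene and of an antisense partner cannot be told apart.

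**Figure D2:**
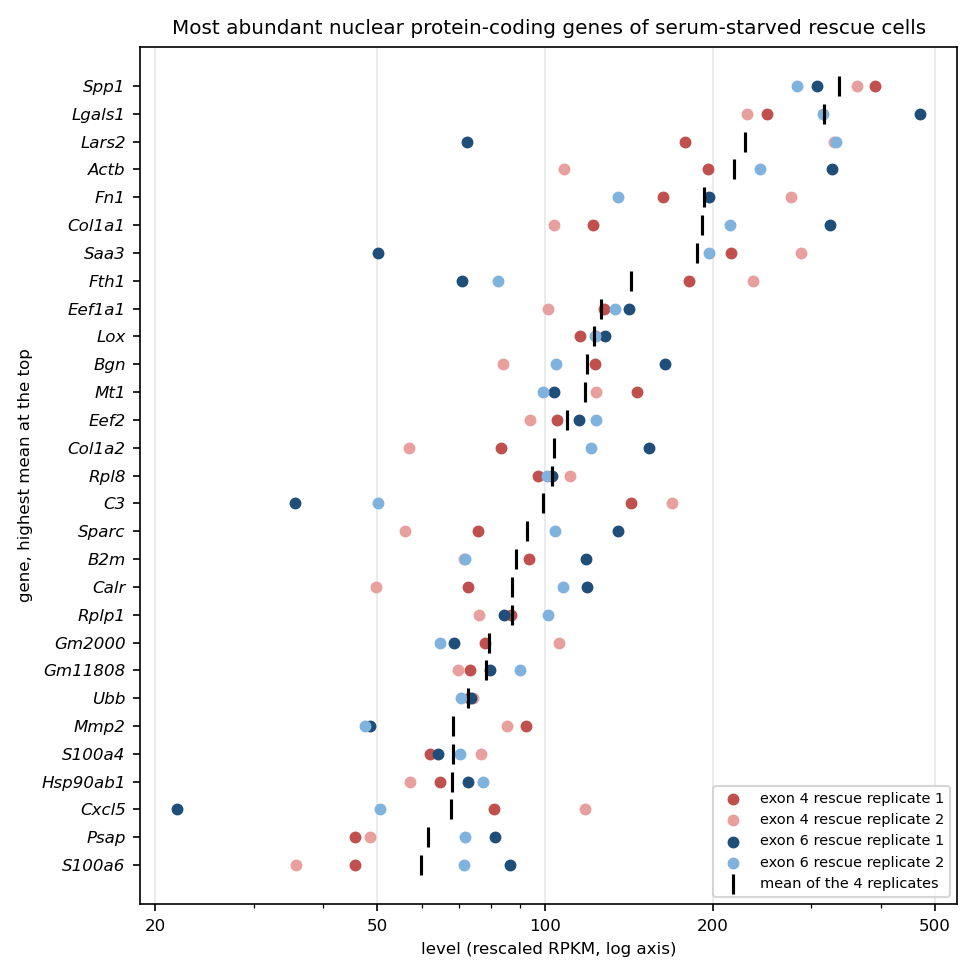
Levels of genes among the 30 most abundant nuclear protein-coding genes without the repeat-like models, as rescaled RPKM on a log axis, with 1 point for each of the 4 rescue replicates and a bar for their mean. Spp1, Lgals1 and Lars2 lead. The replicates of Lox, Rpl8 and Ubb lie close together, and those of Lars2, Saa3, C3 and Cxcl5 spread over more than a 4-fold range.

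The matrix genes were considered by their roles. Of 32 collagen genes 16 were expressed and 6 were silent, or 10 without exon 4 replicate 2, against 28.0% expressed and 32.3% silent over all 21476 nuclear protein-coding genes. The median of the list was 1.18 RPKM. After Col1a1 and Col1a2 came Col6a1 (28.3, 26.3, 37.8 and 32.3 RPKM), a chain of the beaded-filament collagen VI, then Col3a1, Col5a1 (17.9, 20.5, 17.6 and 13.1 RPKM), a chain of collagen V that nucleates fibrils, and Col16a1 (18.6, 13.0, 14.7 and 12.9 RPKM). Silent collagens were Col2a1 and Col9a1 of cartilage, Col4a3 and Col4a4 of specialised basement membranes, Col8a2 and Col13a1.

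Among 43 matrix glycoprotein genes 27 (62.8%) were expressed and 8 were silent, or 9 without exon 4 replicate 2, with a median of 2.24 RPKM. Besides Spp1, Fn1 and Sparc, the highest were Efemp1 (60.9, 58.7, 56.4 and 47.7 RPKM), encoding fibulin-3, Thbs1 (14.0, 17.7, 33.3 and 29.5 RPKM), encoding the anti-angiogenic thrombospondin-1, and Fbln5 (18.0, 15.0, 26.4 and 23.6 RPKM), encoding the elastic fibre protein fibulin-5. Elastin itself was silent, with Eln at 0.000314, 0.0455, 0.000261 and 0.00956 RPKM. Fbn2, Fbln1, Mfap2, Vtn, Ccn3, Lama1 and Lama2 were the other silent members.

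Of 26 proteoglycan and hyaluronan genes 13 were expressed and 5 were silent, or 7 without exon 4 replicate 2, with a median of 0.641 RPKM. Bgn, the small leucine-rich proteoglycan biglycan, dominated with 123, 83.9, 164 and 104 RPKM. The related Dcn, decorin, reached 30.8, 11.7, 2.15 and 5.83 RPKM, and differed within the technical pair as well (2.32 and 9.34 RPKM). The transmembrane syndecan-4 gene Sdc4 (18.9, 13.7, 9.34 and 10.0 RPKM) had a mean of 13.0 RPKM, just above the 12.6 RPKM of Dcn. Hspg2 (9.41, 14.7, 15.4 and 8.74 RPKM), encoding the basement membrane proteoglycan perlecan, followed, and then Ogn and Sdc2 with means of 7.58 and 5.70 RPKM. Acan and Bcan, the lecticans of cartilage and brain, were silent, as were Gpc3, Gpc4 and Sdc3.

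Genes that assemble the matrix had the highest expressed share of these groups, 15 of 20 (75.0%), with a median of 3.28 RPKM. Next to Lox stood Serpinh1 (39.3, 32.8, 72.4 and 61.3 RPKM), the collagen chaperone HSP47, and Pcolce (37.2, 34.5, 41.9 and 29.3 RPKM), an enhancer of procollagen processing. P4hb, the shared subunit of prolyl 4-hydroxylase, had 31.9, 32.5, 36.9 and 38.9 RPKM. Loxl1 (14.0, 9.17, 30.2 and 20.3 RPKM) and Fkbp10 (6.26, 5.19, 9.13 and 7.51 RPKM) were lower, and Loxl2 and Pcolce2 were silent.

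Of 36 genes of matrix degradation 20 (55.6%) were expressed and 5 were silent, or 12 without exon 4 replicate 2, with a median of 1.18 RPKM. Mmp2, the gelatinase A gene, led with 92.3, 85.3, 48.5 and 47.5 RPKM, and Mmp14, whose product activates pro-MMP2 at the cell surface, had 13.6, 10.7, 17.9 and 12.6 RPKM. The inhibitor gene Timp2 was read at 33.4, 31.5, 32.9 and 28.6 RPKM. The lysosomal proteases Ctsd and Ctsl had means of 44.7 ± 8.05 and 40.3 ± 7.02 RPKM, and Adamts1 11.8 ± 4.52 RPKM. The stromelysin genes Mmp3 and Mmp10 were silent, as were Mmp15, Mmp16 and Mmp23.

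Of 81 growth factor ligand genes 23 (28.4%) were expressed and 30 (37.0%) were silent, or 42 without exon 4 replicate 2, with a median of 0.0811 RPKM, so their expressed share was near the 28.0% of all nuclear protein-coding genes. The highest was Fgf7, keratinocyte growth factor, a mesenchymal product that acts on epithelia, with 36.0, 34.8, 21.6 and 25.4 RPKM. Csf1, the macrophage colony-stimulating factor, had 20.8, 15.3, 24.9 and 21.997 RPKM, and Angptl4, an inhibitor of lipoprotein lipase, 13.5, 13.7, 13.0 and 13.1 RPKM. Grn, progranulin, Tgfb3, a transforming growth factor, and Kitl, stem cell factor, had means of 12.3 ± 3.39, 6.82 ± 2.25 and 5.71 ± 1.02 RPKM.

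The silent ligands included hedgehogs (Shh, Ihh and Dhh), Wnts (Wnt1, Wnt2, Wnt3a, Wnt4, Wnt5b, Wnt7a, Wnt7b and Wnt11), bone morphogenetic proteins (Bmp2, Bmp4 and Bmp7) and insulins (Ins1 and Ins2). Wnt1 was listed at 0 in every library. Of the platelet-derived growth factors, Pdgfb and Pdgfd were silent. The growth arrest-specific ligand Gas6 was silent too, at 0.000104, 0.00137, 0.0201 and 0.0751 RPKM, the last being the average of 0.150 RPKM in library 2 and 0 in library 3.

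Of 36 growth factor receptor genes 16 (44.4%) were expressed and 8 were silent, or 15 without exon 4 replicate 2, with a median of 0.492 RPKM. Pdgfra, the receptor for platelet-derived growth factor that marks mesenchymal cells, led with 46.9, 43.3, 27.4 and 32.8 RPKM. Axl, a receptor for Gas6, was at 13.1, 11.6, 17.4 and 16.7 RPKM, while this ligand was called silent (above). Whether the low values of Gas6 come from a failed estimate was not tested. The co-receptor Tgfbr3 (14.0, 18.6, 7.18 and 8.06 RPKM), the scavenger receptor Igf2r (12.5, 16.02, 9.46 and 7.70 RPKM), Fgfr1 (8.43, 9.84, 7.19 and 7.87 RPKM) and the collagen receptor Ddr2 (5.97, 6.92, 7.11 and 6.44 RPKM) followed. Csf1r, the receptor for Csf1, was silent (0.00667, 0.0154, 0.0342 and 0.0223 RPKM) while its ligand was expressed. Ngfr of the neurotrophin system, Kdr and Flt4 of the vascular endothelial growth factor system, Fgfr3, Fgfr4 and Mertk were silent as well.

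Of 26 secreted modulators of these ligands 7 (26.9%) were expressed and 11 silent, or 12 without exon 4 replicate 2, with a median of 0.104 RPKM. Their expressed share was near the 28.0% of all nuclear protein-coding genes. Igfbp6, a binding protein that prefers IGF-II, had 34.3, 31.9, 26.9 and 28.9 RPKM, and Fstl1, a follistatin-like protein, 14.5, 16.7, 16.8 and 18.0 RPKM. Igfbp4 differed between the clones (below), and Igfbp7 and Nbl1, the latter a BMP antagonist, had means of 4.92 and 3.09 RPKM. The BMP antagonist Nog, the Wnt antagonists Sfrp1, Sfrp2, Dkk1, Dkk3 and Wif1, and Igfbp1, Igfbp2, Igfbp3 and Igfbp5 were silent.

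Of 44 cytokine and chemokine genes 7 (15.9%) were expressed and 15 silent, or 26 without exon 4 replicate 2, with a median of 0.0581 RPKM. The summed level of the list was 241 and 309 RPKM in the exon 4 replicates and 64.7 and 99.1 RPKM in the exon 6 replicates. Besides Cxcl5, the neutrophil chemokine Cxcl1 had 42.2, 52.6, 9.89 and 19.0 RPKM, and the cytokine Mif, with 62.3% of its stretches shared, 14.8, 15.7, 26.2 and 20.8 RPKM. Cxcl1 and Mif also differed between the technical libraries 2 and 3, with 10.3 and 27.8 RPKM and with 13.6 and 28.1 RPKM. Ccl2, Ccl7 and Ccl8, which attract monocytes, were high in the exon 4 clone and are described with the comparison of the clones. Tnf, Il1b, Ifng, Ifnb1, Il12a, Il12b and Il17a were silent, and Osm and Cxcl14 were listed at 0 in every library. Cxcl12, a chemokine of many stromal cells, was silent here, at 0.0234, 0.0178, 0 and 0.00560 RPKM.

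A wider list of fibroblast and mesenchymal markers had 22 of 30 (73.3%) expressed and 3 silent (4 without exon 4 replicate 2), with a median of 4.75 RPKM. Its 6 highest members were Fn1, Col1a1, Col1a2, Sparc, S100a4 and S100a6. Cdh11, the mesenchymal cadherin, Tcf21, a transcription factor of fibroblast precursors, and Nt5e, encoding the surface marker CD73, were silent, so not every marker of the list was expressed. Cdh11 was at 0.0578, 0.0772, 0.00950 and 0.0183 RPKM.

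Of 30 genes of the actin cytoskeleton and contractile apparatus 22 (73.3%) were expressed and 4 were silent, with a median of 6.42 RPKM. After Actb came Cfl1, the actin-severing cofilin, with 38.9, 29.0, 68.0 and 47.8 RPKM, and then Cald1, Myh9, Actn1 and Pfn1 with means of 21.3, 20.1, 19.8 and 17.3 RPKM. The smooth muscle genes Myh11, Cnn1, Lmod1 and Myl9 were silent. Acta2, the smooth muscle actin that marks myofibroblasts, which was looked at for this role after its values were seen, had 2.66, 2.11, 2.55 and 1.48 RPKM, far below Actb.

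**Figure D3:**
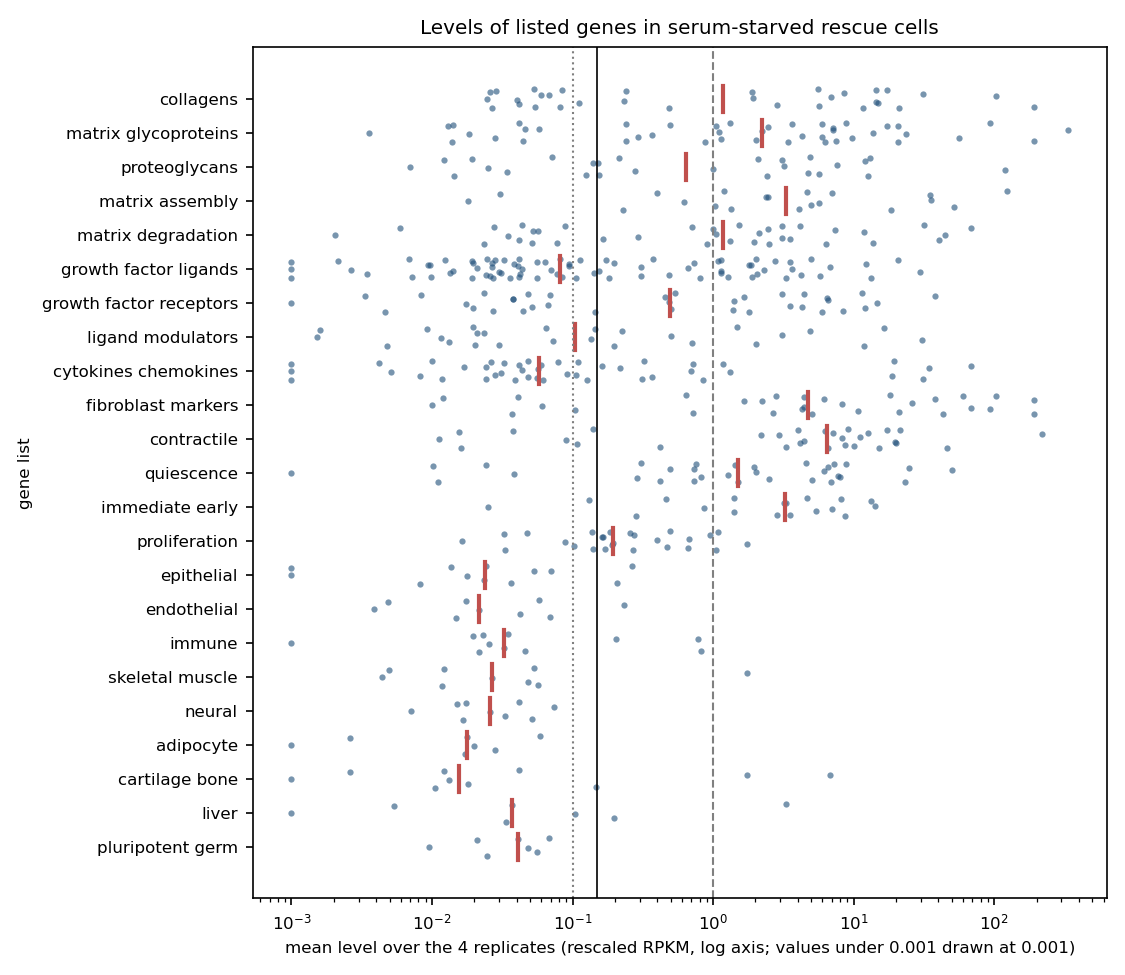
Mean level over the 4 rescue replicates of every member of each gene list (blue points, rescaled RPKM on a log axis, values under 0.001 drawn at 0.001), with the median of each list in red. The black line marks the median of all nuclear protein-coding genes without repeat-like models (0.150 RPKM), the dotted line 0.1 RPKM and the dashed line 1 RPKM. Matrix, fibroblast, contractile and immediate early lists lie to the right of the black line, and the lists for other cell types to its left.

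Genes linked to growth arrest were expressed in 18 of 31 cases (58.1%) and silent in 4, or 5 without exon 4 replicate 2, with a median of 1.49 RPKM. Gas1, a growth arrest-specific membrane protein, was highest with 57.3, 35.3, 55.6 and 53.1 RPKM. Cdkn1a, which encodes the CDK inhibitor p21, had 24.5, 37.8, 19.7 and 16.7 RPKM, and Txnip, a thioredoxin-binding protein induced when growth stops, 22.8, 27.6, 21.4 and 21.4 RPKM. Klf4, Foxo3 and the noncoding host gene Gas5 had means of 8.79 ± 5.52, 8.02 ± 2.33 and 7.76 ± 1.62 RPKM. Gas6, Cdkn1c, Cdkn2a and Cdkn2b were silent, the last 3 being genes of the CDK inhibitors p57, p16 and p15. RNA levels do not show whether a silent gene is intact in these cells, so silence is not read as a trait of the arrest.

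Proliferation genes were low but mostly not silent. Of 26, 3 (11.5%) reached a mean of 1 RPKM, 3 were silent and 20 lay between, and the median was 0.193 RPKM, close to the 0.150 RPKM of all nuclear protein-coding genes. Those that reached it were Mcm2, a subunit of the replicative helicase (1.24, 1.05, 2.19 and 2.46 RPKM), the topoisomerase gene Top2a (1.64, 1.38, 0.5002 and 0.828 RPKM) and the transcription factor gene E2f1 (1.205, 0.558, 1.201 and 1.24 RPKM), and under each of the other 3 scalings only 1 gene did. Mcm3, Pcna, the replication clamp, and Mcm6 followed with means of 0.958, 0.675 and 0.662 RPKM. The mitotic cyclin Ccnb1, E2f2 and Mybl2, which encodes B-MYB, were silent. The summed level of the list was 11.3, 7.89, 9.33 and 11.5 RPKM, less than that of Gas1 alone in every replicate.

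Late cell cycle genes often hold a cell cycle genes homology region (CHR) close to the start of transcription, the element that MuvB contacts through its subunit LIN54. The letters TTTGAA, the core of this element, were searched on both strands from 250 bases before to 50 after the start of each gene in RefSeq (GRCm38.p6). Of the 26 proliferation genes 23 had a promoter sequence, and 10 of them (43.5%) held TTTGAA at least once, against 4892 of all 27018 promoters of this length (18.1%). A match is a description of the letters and not of binding. The promoters of Cdc20, the activator of the anaphase-promoting complex, of the mitotic kinase gene Plk1 and of the B-type cyclin gene Ccnb2 are shown because these genes of mitosis hold the letters, given 5′ to 3′ with TTTGAA in capitals.
Cdc20, chr4:118437294-118437593, minus strand: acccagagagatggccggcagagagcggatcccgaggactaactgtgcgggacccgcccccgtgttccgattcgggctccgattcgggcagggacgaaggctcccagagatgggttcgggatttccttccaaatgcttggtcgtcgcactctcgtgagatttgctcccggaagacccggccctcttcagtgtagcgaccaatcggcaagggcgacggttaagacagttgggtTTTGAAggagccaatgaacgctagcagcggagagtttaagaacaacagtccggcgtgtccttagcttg
Plk1, chr7:122159185-122159484, plus strand: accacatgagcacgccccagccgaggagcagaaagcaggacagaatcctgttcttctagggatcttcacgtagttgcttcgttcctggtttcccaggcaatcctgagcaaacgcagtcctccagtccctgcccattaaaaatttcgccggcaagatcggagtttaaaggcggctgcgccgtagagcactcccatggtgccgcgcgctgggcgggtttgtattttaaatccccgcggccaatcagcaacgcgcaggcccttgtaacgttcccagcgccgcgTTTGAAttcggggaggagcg
Ccnb2, chr9:70421505-70421804, minus strand: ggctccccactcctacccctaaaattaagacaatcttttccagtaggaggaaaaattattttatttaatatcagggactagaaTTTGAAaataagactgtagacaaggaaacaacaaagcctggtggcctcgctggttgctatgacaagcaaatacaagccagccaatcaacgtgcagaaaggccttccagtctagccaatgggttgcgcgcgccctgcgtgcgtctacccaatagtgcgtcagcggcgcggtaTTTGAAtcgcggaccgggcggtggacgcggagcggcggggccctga
The capitals begin 18 bases before the start in Cdc20, 30 bases after it in Plk1, and 167 bases before and 4 bases after it in Ccnb2. In the rescue replicates Cdc20 was read at 0.671, 0.241, 0.444 and 0.242 RPKM, Plk1 at 0.254, 0.0264, 0.150 and 0.130 RPKM, and Ccnb2 at 0.0447, 0.00741, 0.0177 and 0.119 RPKM, the last being the average of 0.0246 and 0.213 RPKM in libraries 2 and 3. The 3 were chosen for their promoters after their levels were seen. Mcm2 and Top2a, the proliferation genes with the highest means, are also among the 10 that hold TTTGAA. A comparison of promoters between expressed and silent genes is void, because a promoter was found for 79.5% of the expressed and 72.5% of the silent genes, under the 80% set for such a check.

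Of 18 immediate early genes, which serum induces within minutes, 13 (72.2%) were expressed and 1 was silent (Atf3), with a median of 3.24 RPKM. Fos, Fosb, Egr2 and Egr3 lay between these classes, with means of 0.865, 0.463, 0.283 and 0.130 RPKM. The AP-1 subunit genes Fosl2 and Jund had 18.5, 14.7, 12.2 and 11.4 RPKM and 11.96, 8.96, 18.1 and 13.8 RPKM, and Myc, the growth-promoting transcription factor, 10.997, 5.44, 8.93 and 9.35 RPKM. Egr1 varied more, with 15.9, 3.32, 5.53 and 7.64 RPKM, and Junb and Dusp1, a MAP kinase phosphatase, had means of 6.98 ± 3.29 and 5.43 ± 2.33 RPKM. The technical libraries 2 and 3 behind exon 6 replicate 2 differed for these genes, with 2.87 and 12.4 RPKM for Egr1, 3.25 and 9.68 RPKM for Junb and 2.45 and 7.33 RPKM for Dusp1. Jund shared 50.6% of its stretches with other genes, so its level is uncertain.

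None of the 12 epithelial, 9 endothelial, 11 immune and blood, 9 neural, 7 adipocyte and 7 pluripotent and germ cell genes was expressed. The keratin and claudin genes Krt19 and Cldn4, the haemoglobin gene Hba-a1 and the adipocyte regulator Cebpa were listed at 0 in every library. The highest of these lists were Cd14, a lipopolysaccharide co-receptor (1.27, 0.532, 0.506 and 0.956 RPKM), and Cd68, a lysosomal protein of macrophages (0.910, 0.605, 0.792 and 0.791 RPKM), while Ptprc, the pan-leukocyte marker CD45, Adgre1 and Itgam were silent. The summed level of the immune list was 2.33, 2.43, 1.40 and 1.83 RPKM, and that of the epithelial list, led by Krt14, 1.32, 0.868, 0.400 and 0.286 RPKM. The endothelial list, led by Emcn, summed to 0.389, 1.22, 0.0925 and 0.156 RPKM, with Pecam1, Cdh5 and Vwf silent.

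In 3 further lists 1 or 2 members were expressed. Of 10 cartilage and bone genes these were Sox9, the chondrocyte regulator (8.39, 8.15, 5.71 and 5.07 RPKM), and Runx2, the osteoblast regulator (2.15, 1.65, 1.78 and 1.43 RPKM), while Sp7, Bglap, Acan and Col2a1, which mark differentiated bone and cartilage, were silent. Of 9 skeletal muscle genes only Tnnt3, a fast muscle troponin, passed 1 RPKM, with 5.05, 1.32, 0.3004 and 0.321 RPKM, and its mean fell below 1 RPKM without exon 4 replicate 1, while Myod1 and Myog were silent. Of 7 liver genes only Serpina1a, alpha-1-antitrypsin, did, with 6.14, 5.16, 1.17 and 0.653 RPKM and 67.3% of its stretches shared with other genes, while Alb, Ttr and Apoa1 were silent.

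Large families outside the fibroblast program were silent or low. None of 1050 olfactory receptor genes was expressed, and 597 of them (56.9%) were silent, or 898 (85.5%) without exon 4 replicate 2, against 32.3% and 43.7% of all nuclear protein-coding genes. The highest, Olfr1480, was at 0.288, 1.37, 0.0383 and 0.635 RPKM. None of 293 vomeronasal receptor genes (219 silent), 53 taste and trace amine receptor genes (26 silent), 53 keratin genes (42 silent), 56 keratin-associated protein genes (44 silent) and 42 beta-defensin genes (33 silent) was expressed. Without exon 4 replicate 2 the silent numbered 272, 43, 50, 52 and 41. Members of these families share sequence, so single values among them are uncertain.

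HOX genes, whose order along a chromosome mirrors where along the body they act, changed level abruptly within the clusters. In the HOX A cluster Hoxa7 was highest, with 2.21, 1.91, 2.75 and 2.16 RPKM, and Hoxa2 to Hoxa6 had means of 0.311 to 1.58 RPKM, while the neighbouring Hoxa9, Hoxa10, Hoxa11 and Hoxa13 were silent. In the HOX C cluster Hoxc4, Hoxc5 and Hoxc6 had means of 0.667, 0.601 and 1.56 RPKM, while Hoxc9 to Hoxc13 were silent and Hoxc8 had a mean of 0.0315 RPKM. In the HOX D cluster the boundary lay farther on, with Hoxd8 at 1.99 and Hoxd9 at 1.28 RPKM and Hoxd10 to Hoxd13, and Hoxd1 at the other end, silent. No gene of the HOX B cluster passed a mean of 0.317 RPKM. Hoxb5 and Hoxb6, with means of 0.317 and 0.288 RPKM, were above 0.1 RPKM in every replicate. The neighbouring Hoxb7, Hoxb8, Hoxb9 and Hoxb13 were silent, as were Hoxb1 and Hoxb2 at the other end. Neighbouring HOX genes overlap in the annotation, and Hoxd3 and Hoxd4 shared 61.5% and 50.3% of their stretches with other genes.

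**Figure D4:**
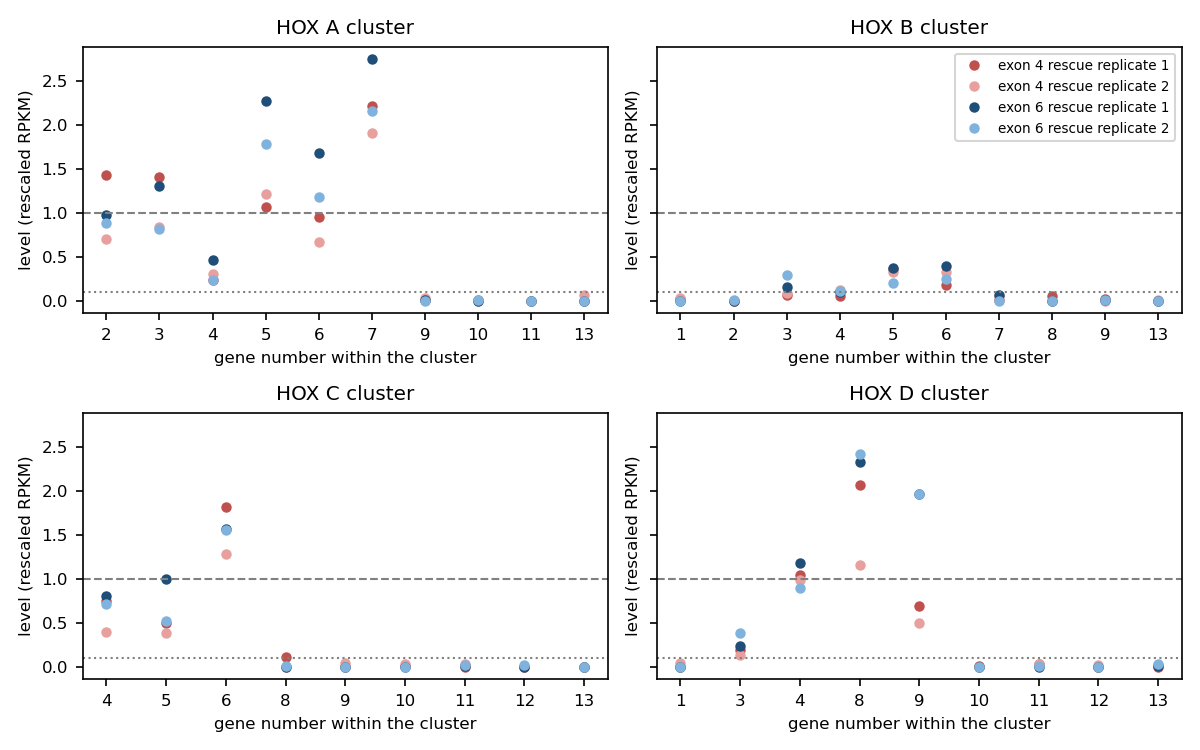
Level (rescaled RPKM) of genes of the 4 HOX clusters, in the order of the gene numbers, with 1 point for each of the 4 rescue replicates; the dotted line marks 0.1 RPKM and the dashed line 1 RPKM. The points of Hoxa2 to Hoxa7, Hoxc4 to Hoxc6 and Hoxd3 to Hoxd9 lie above 0.1 RPKM and those of the higher-numbered genes of these clusters near 0, apart from 1 point of Hoxc8 at 0.118 RPKM.

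Of 83 cytosolic ribosomal protein genes 72 (86.7%) were expressed, with a median of 3.603 RPKM, below Rpl8 and Rplp1. The median share of their stretches found in other genes was 29.0%, against 2.63% over all nuclear protein-coding genes. The 12 with 50% or more of their stretches shared had a median of 7.80 RPKM and the others 3.16 RPKM. Over all nuclear protein-coding genes the order was the reverse, with 0.0343 RPKM for the 2150 genes with such sharing and 0.204 RPKM for the others. Rpl9 had a mean of 0.588 RPKM with 20.4% of its stretches shared, and the gene model Rpl9-ps6 40.8 RPKM with 94.5% shared. Whether the sharing moves the levels of ribosomal protein genes was not tested. Gapdh, the glycolytic enzyme often used as a reference, was at 1.83, 1.94, 2.60 and 2.30 RPKM and shared 29.0% of its stretches. Levels of genes with shared sequence are uncertain, and Gapdh was looked at after the data were seen.

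The only test between groups of the rescue cells compared the 2 clones, with 2 replicates each. It used log2(RPKM + 0.5), a scale on which the changes of low genes are understated. Of 17979 genes tested with limma, 13 (0.0723%) were called higher in the exon 4 clone and 14 (0.0779%) higher in the exon 6 clone, at a Benjamini-Hochberg adjusted p under 0.05, of which 10 and 13 are protein-coding. At an unadjusted p under 0.05 there were 3182 genes. The neighbouring chemokine genes Ccl2 and Ccl7 on chromosome 11 fell most steeply from the exon 4 to the exon 6 clone. Ccl2 was at 63.0, 70.5, 0.955 and 2.68 RPKM (log2 change -4.96 ± 0.37 SE, adjusted p = 0.0303) and Ccl7 at 31.5, 42.5, 0.335 and 0.630 RPKM (log2 change -5.26 ± 0.23 SE, adjusted p = 0.0202). In exon 6 replicate 2 the technical libraries 2 and 3 gave 0.830 and 4.54 RPKM for Ccl2 and 0.0885 and 1.17 RPKM for Ccl7, so the size of these changes is uncertain. Ccl8 of the same neighbourhood was at 2.33 and 2.99 RPKM in the exon 4 clone and listed at 0 in both exon 6 replicates.

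Also higher in the exon 4 clone were Igfbp4, which binds insulin-like growth factors (22.1, 19.6, 2.44 and 3.06 RPKM, log2 change -2.72 ± 0.18 SE, adjusted p = 0.0228), the growth arrest-specific gene Gas7 (3.32, 4.36, 0.0151 and 0.0583 RPKM), the complement gene C4b (4.67, 4.03, 0.213 and 0.185 RPKM) and the small leucine-rich proteoglycan gene Prelp (7.57, 9.04, 1.30 and 1.16 RPKM). Higher in the exon 6 clone were Ncam1, a neural cell adhesion molecule (0.356, 0.270, 5.87 and 5.11 RPKM, log2 change 2.88 ± 0.16 SE, adjusted p = 0.0228), Dpt, the matrix protein dermatopontin (0.583, 1.18, 8.14 and 7.73 RPKM), Ltbp4, a latent TGF-beta binding protein (0.334, 0.265, 4.34 and 3.13 RPKM), Inhba, the activin A subunit (0.444, 0.585, 3.31 and 2.82 RPKM), and Cacng7, a calcium channel subunit (0.322, 0.312, 3.75 and 3.47 RPKM). Tmsb4x, the actin-binding thymosin beta-4, was listed at 0 in exon 4 replicate 1 and had 0.0849, 10.4 and 5.47 RPKM in the others. It is a gene of nearly all cells, and whether the 0 comes from a failed estimate was not tested. Of the lists above, the cytokines held 3 genes higher in the exon 4 clone among 18 tested, and the proteoglycans 1 of 19, the modulators 1 of 13 and the growth arrest genes 1 of 26, against 0.0723% of all genes tested. The glycoproteins held 1 of 33, the ligands 1 of 37, the fibroblast markers 1 of 25 and the contractile genes 1 of 25 higher in the exon 6 clone, against 0.0779%.

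These calls rest on 2 residual degrees of freedom. Their counts moved to 9 and 4 with a pseudocount of 1 and to 91 and 98 among genes of at least 1 RPKM. With the replicate number as a block they were 279 and 262. With limma and without exon 4 replicate 1, exon 4 replicate 2 or exon 6 replicate 1 no gene was called in either direction, and without exon 6 replicate 2 only 2 were, both higher in the exon 4 clone, although 5386, 2731, 1137 and 1779 genes had an unadjusted p under 0.05. In RPKM as deposited 284 genes were called higher in the exon 4 clone and 1249 higher in the other, on a median log2 change of 0.46 over all genes tested, against -0.11 after rescaling. Each clone is a single-cell line, so a difference between the clones cannot be told apart from a difference between the 2 cells they came from.

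**Figure D5:**
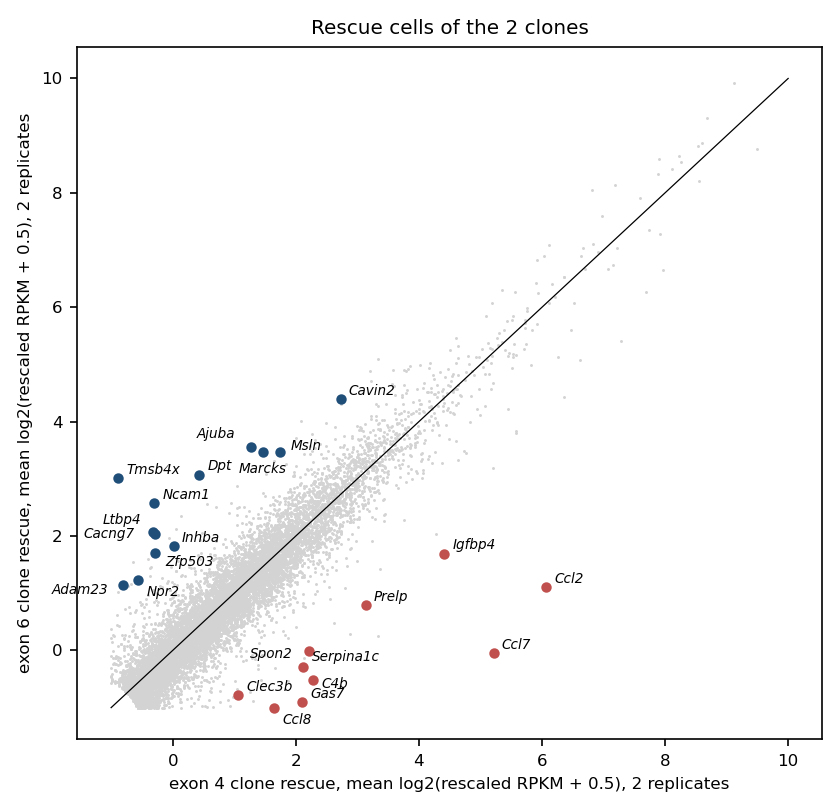
Mean log2(rescaled RPKM + 0.5) of protein-coding genes averaging 0.1 RPKM or more, without the few highest, in the 2 exon 4 replicates (x axis) and the 2 exon 6 replicates (y axis) of rescue cells; the line marks equal levels. The 10 protein-coding genes called higher in the exon 4 clone are in red, with Ccl2 and Ccl7 farthest from the line, and the 13 called higher in the exon 6 clone in blue.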

How the data were processed

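RNA-seq of serum-starved NIH3T3 cells was analysed from a table of RPKM per gene and library that the authors deposited. Per the study's methods, the authors clipped adapters with cutadapt, mapped reads to mm10 with segemehl, allowing split reads, and took gene counts from rnacounter with a GENCODE mouse annotation; Picard 1.89 is named in the submitters' processing notes without a role. Which reads the RPKM were scaled to is not given in the sources used here, and the depth of each library is unknown, so no counting interval can be given.

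Of 45232 gene identifiers 44585 matched GENCODE release M21 for GRCm38, and 555 of 555 listed symbols matched, 7 through newer symbols. Libraries were divided by median-of-ratios factors from the 8523 genes that averaged 1 RPKM or more and were nowhere listed at 0 among the 10 libraries. The factors of the 5 rescue libraries were 0.722, 0.377, 1.06, 0.324 and 1.73, and exon 6 libraries 2 and 3 were then averaged. Shared sequence is the percent of a gene's 25-base stretches that occur in other genes of the annotation's transcripts.

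Genes that averaged 0.1 RPKM or more were tested with limma 3.58.1 (lmFit, eBayes with trend) in R 4.3.3 on log2(RPKM + 0.5), and p-values were adjusted after Benjamini and Hochberg. The procedure was tested on simulated data. The edgeR test of the study needs counts and was not used. Other steps were run in Python 3.11.15 with pandas 2.3.3 and numpy 2.4.6, and figures were drawn with matplotlib 3.10.9. Alternatives were the scaling, the thresholds, the pseudocount, the trend, the handling of technical replicates and leaving out single replicates.

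Named genes were the 30 most abundant nuclear protein-coding genes, 6 fibroblast markers, Lin37, up to 6 members of each list with the highest mean, silent members that mark another role or cell type, and of the genes called between the clones the 5 protein-coding genes with the largest log2 change in each direction and called list members; not every gene that met this rule is shown. HOX genes, Olfr1480, Gapdh, Acta2, Cdc20, Plk1, Ccnb2, the repeat-like models, Y chromosome genes and the neighbours of Saa3, Mt1 and Cxcl5 were named outside this rule, after their values were seen. So were Rpl9, Rpl9-ps6, Fos, Fosb, Egr2 and Egr3. The members and lists were chosen with earlier results of these data known. p-values measure the spread between replicate cultures of 1 clone each.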

Additional observations from a re-analysis of the deposited data

Results flagged for a closer look

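Of 118 named genes that averaged 0.1 RPKM or more, 5 (4.24%) had 1 of the 4 replicates far from the other 3, which chance alone gives in about 1 in 20 genes. In 4 of the 5 the replicate was exon 4 replicate 2, which also stood apart at the low end of the range. There the BMP antagonist gene Nbl1 was lowest with 2.26 RPKM (others 3.30 to 3.42), the growth arrest gene Gas1 with 35.3 RPKM (others 53.1 to 57.3) and E2f1 with 0.558 RPKM (others 1.201 to 1.24), while Cd3e, a T cell receptor component, was highest with 0.809 RPKM (others 0 to 0.00188). In exon 4 replicate 1 the cartilage matrix gene Comp was highest with 0.379 RPKM (others 0.0568 to 0.0772). Whether anything beyond chance sets these values apart was not tested.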

How the results depend on the processing

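Levels are relative, and the scale moves the counts. Expressed genes numbered 4687 to 5342 and silent genes 8413 to 9593 under the 3 other scalings, against 6049 and 6928. Of the 164 named levels, 40 moved by more than the SD of the replicates in RPKM as deposited, 65 with factors from the 5 rescue libraries and 26 after quantile normalization. The list members at 1 RPKM or more numbered 195 to 223 over all alternatives, against 222. Thresholds moved the counts furthest: 3479 genes reached 2 RPKM, 4223 stayed below 0.05 RPKM in every replicate and 675 were listed at 0 in all 5 libraries.

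The share of the 30 most abundant genes was 66.1% of the level of all gene types. Leaving out the repeat-like models, an alternative chosen after seeing the data, gave 13.0% and kept 18 of the 30 genes, and with mitochondrial genes included 19 stayed among the 30. Without the repeat-like models the share was 13.4% after quantile normalization, and 28 to 30 of the 30 genes stayed under every other alternative; the cause of the shift was not tested.

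Calls between the clones, 13 higher in the exon 4 clone and 14 higher in the other, depended on many of the choices. The counts were 12 and 12 with factors from the 5 rescue libraries, all among the 13 and 14, and 10 and 12 after quantile normalization, with 10 and 11 of the same genes. They were 284 and 1249 in RPKM as deposited. With technical replicates kept separate, which counts 1 technical pair as 2 replicates, they were 94 and 90. A pseudocount of 0.1 gave 32 and 33, and genes of at least 1 RPKM, of which 7562 were tested, gave 91 and 98. With no minimum 0 and 0 of 45232 genes were called by limma, with 4389 at an unadjusted p under 0.05. With a pseudocount of 1 the counts were 9 and 4, without the trend 9 and 3, and with exon 6 library 3 alone, an added alternative, 10 and 4; with library 2 alone they were 23 and 19. Leaving out single replicates gave 0 to 2 and 0 to 0 calls, with a lone sample assumed to vary like the other clone. None of the 27 genes turned in direction under any alternative in which it was tested.

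The replicate numbers are not stated to pair cultures across clones. When the replicate number entered as a block, 279 and 262 genes were called, among them all 13 and 14. Deviations of same-numbered replicates had a correlation of 0.214 over genes. The planned comparison of promoter CpG ratio between expressed and silent genes was not run, since too few genes had a promoter. With depth unknown, levels below 0.1 RPKM cannot be separated from 0.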

Other observations

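The level of the genes around the Ink4 locus changed abruptly from one gene to the next. Mtap, a methionine salvage enzyme gene, was at 21.96, 25.7, 20.9 and 25.7 RPKM, while its neighbours Cdkn2a, Cdkn2b and Dmrta1 were silent in all 4 replicates, Cdkn2a with no replicate above 0.00148 RPKM. Whether these neighbours are intact in the genome of these cells was not tested. Genes of the Y chromosome were read, Ddx3y at 2.19, 2.36, 1.67 and 2.46 RPKM and Eif2s3y at 1.18, 0.957, 0.821 and 1.17 RPKM, and Xist, the noncoding RNA of the inactive X chromosome, stayed below 0.1 RPKM in each replicate.

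Silent genes were spread unevenly over the chromosomes. Their share was 51.3% of 942 nuclear protein-coding genes on the X chromosome, 83.6% of 183 on the Y chromosome, 41.4% of 1949 on chromosome 7 and 18.7% of 630 on chromosome 12, against 32.3% over all. Without exon 4 replicate 2 these shares were 59.3%, 90.7%, 51.9% and 30.6%, against 43.7% over all.

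Metallothionein genes lie side by side on chromosome 8. Mt1 was among the most abundant genes, Mt2 was at 76.3, 76.3, 32.8 and 36.8 RPKM (16.5 and 57.1 RPKM in the technical libraries 2 and 3) with 63.4% of its stretches shared with other genes, and Mt3 and Mt4 were listed at 0 in every replicate. Among the CXC chemokine genes of chromosome 5, Cxcl5 and Cxcl1 were high while Ppbp, Cxcl15, Pf4, Cxcl2 and Cxcl3, which lie between or beside them, had means of 0.160, 0.1002, 0.0253, 0.0241 and 0.00676 RPKM.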
